A study of Mus musculus with 5 samples.

Results

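The Hox cluster genes were measured in embryonic mouse hearts of the E10.5 stage. Members were all probe sets whose annotated symbol is Hoxa, Hoxb, Hoxc or Hoxd followed by a number and nothing else, which gave 38 of the 24479 probe sets, 1 for each gene. Paralogue group 1 was therefore read through Hoxb1 and Hoxd1, and probe sets without a symbol in the annotation used are not analysed here. RNA came from untreated embryonic hearts in 2 groups, 3 arrays with the genotype given as control and 2 arrays with the genotype given as KO, here called knockout. The gene named in the title of the series is Lrrfip2. The labels do not give the strain, the allele, the genotype behind the word control, or how many hearts make up a sample. P-values therefore cover only the spread between these 5 samples, which may be technical.

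Hox genes encode homeodomain transcription factors that give cells their position along the body axis. Mammals carry them in clusters, and genes in the same place of different clusters, the paralogue groups, descend from 1 ancestral gene and overlap in function. Low-numbered groups are switched on first and furthest forward, in hindbrain, pharyngeal arches, foregut and the rear part of the second heart field, while high-numbered groups mark the trunk, limbs and tail. Retinoic acid acts on the low-numbered groups, and Hox proteins bind DNA with the TALE homeodomain cofactors Pbx and Meis. In the RefSeq annotation of GRCm38.p6 the clusters lie on chromosome 6 (Hoxa, 10 members), 11 (Hoxb, 10), 15 (Hoxc, 9) and 2 (Hoxd, 9).

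Values are log2 RMA levels. The array medians lay between 5.07 and 5.11, and any pair of arrays correlated at 0.986 to 0.996 over all probe sets. The level of Lrrfip2 was 7.33, 8.07 and 8.08 on the control arrays, replicates 1, 2 and 3 in this order here and below, and 6.36 and 6.22 on knockout replicates 1 and 2. The groups did not overlap for this gene, as for 21.3% of all genes tested. The difference was -1.54 ± 0.28 (SE; adjusted p = 0.355 in the limma fit described below). Its direction goes with the labels, although the deleted part of the gene, and whether the probe set covers it, is not known here. All 12 cardiomyocyte markers were above the dim level defined below in control hearts, Myl2, Myl4 and Tnnt2 at control means of 12.49, 12.41 and 12.30. Of the arrays, knockout replicate 2 stood apart through the markers listed for liver endoderm, whose tissue of origin was not tested. Knockout replicate 1 stood apart through part of the macrophage and blood markers. The tested Hox genes of groups 2 to 5 and 8 are therefore given with and without these arrays.

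Most Hox genes were dim in control hearts. The dim level was set at the 40th percentile of the control mean over all probe sets, a log2 level of 4.42, and 9 of 38 Hox probe sets (23.7%) were above it, against 60% of all probe sets by construction. The paralogue groups with a member above it were group 2 (Hoxb2), group 3 (Hoxa3 and Hoxb3), group 4 (Hoxc4), group 5 (Hoxb5), group 8 (Hoxd8), group 10 (Hoxc10 and Hoxd10) and group 13 (Hoxb13). Groups 1, 6, 7, 9, 11 and 12 had none among the probe sets analysed. By cluster, 1 of 10 Hoxa, 4 of 10 Hoxb, 2 of 9 Hoxc and 2 of 9 Hoxd probe sets were above the level.

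**Figure D1:**
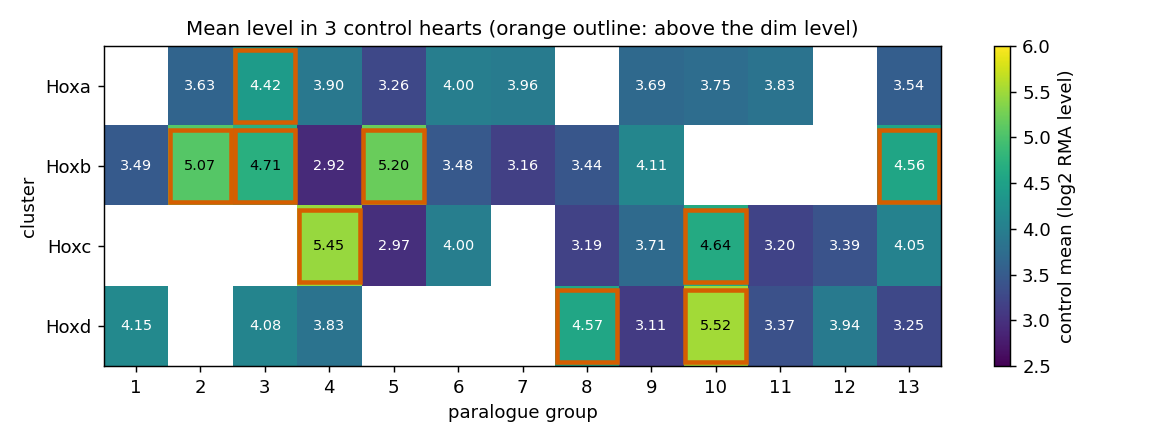
Mean log2 RMA level over the 3 control arrays for each Hox probe set, with clusters as rows and paralogue groups as columns; colour and number give the level, an orange outline marks a mean above the dim level of 4.42, and blank cells have no probe set with that annotated symbol. The 9 outlined cells lie in groups 2 to 5, 8, 10 and 13.

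The line between dim and not dim was thin for some members. Hoxa3 lay just inside it at a control mean of 4.42, with 1 of 3 control arrays above, and Hoxb13 had 2 of 3 control arrays above. The nearest probe set below the line was Hoxd1 at 4.15. All control arrays were above it for the other 7. With the line at the 30th percentile the count was 18, and at the 50th it was 3 (Hoxb5, Hoxc4 and Hoxd10). Probe sets differ in affinity and background, so a level above the line does not by itself show transcription, and levels of different genes are not ranked. As a guide chosen after the values were seen, 7.22% of 1066 olfactory receptor probe sets, genes of the nose, were above the same line. Of the Hox probe sets, Hoxb2, Hoxb3, Hoxb5, Hoxc4 and Hoxd10 had control means above 4.67, the 95th percentile of those receptors.

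Members that were not above the line varied little between arrays, apart from a few named below. The 29 of them had control means from 2.92 to 4.15. Hoxc8, Hoxd1 and Hoxd9 had 1 identical value on all 5 arrays, and 24 of the 38 members had a tie between arrays, against 15677 of all 24479 probe sets. Gene models also overlap in these clusters. In RefSeq, 10 of the 38 members overlap another member, among them Hoxa3 with Hoxa4, Hoxa5 and Hoxa6, and Hoxb3 with Hoxb4. Signal from such pairs could be split by the probes in a way not given in the sources used here.

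Knockout was compared with control by limma over 13967 genes, 9 of them Hox genes. Those 9 had a mean over the 5 arrays of at least 4.44, the 40th percentile over named genes, and they are the same 9 as above. Hoxa3 passed that filter only with the knockout arrays counted, since it fell out when the filter used the control arrays alone. None of the 9 passed an adjusted p of 0.05 (Benjamini-Hochberg over all genes), nor did any gene (0% of those tested). At an unadjusted p under 0.05 there was 1 Hox gene, Hoxd8, against 8.78% of all genes tested. The smallest adjusted p among the Hox genes was 0.364.

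Hoxd8, a Hoxd gene of the middle of the cluster, was slightly higher in both knockout arrays. Its level was 4.55, 4.61 and 4.54 in control replicates 1, 2 and 3, and 4.77 and 4.77 in the knockout arrays. The knockout arrays lay above every control array. It was 1 of the 9 tested members whose groups did not overlap, against 21.3% of all genes tested, and the groups of the 29 untested members all overlapped. The log2 difference (knockout minus control) was 0.20 ± 0.04 (SE), a 1.15-fold higher level, with an unadjusted p of 0.00685 and an adjusted p of 0.364 in limma. The difference was 0.20 without knockout replicate 1 and 0.21 without knockout replicate 2, and its level stayed close to the dim line on all arrays.

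Several other tested members, all of groups 2 to 5, separated the knockout arrays from each other more than the groups. Hoxb3, which with Hoxa3 acts in the pharyngeal arches and hindbrain, had levels of 4.65, 4.84 and 4.63 in the controls, and 4.37 and 5.75 in the knockout arrays. The first knockout array was thus below every control and the second above every control. The mean log2 difference of 0.35 ± 0.45 (SE; adjusted p = 0.733 in limma) describes neither array. It was -0.34 without knockout replicate 2 and 1.04 without knockout replicate 1.

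Hoxc4 showed the same order. It read 5.44, 5.44 and 5.48 in the controls, a range narrower than its gap to either knockout array, which read 5.03 and 5.99. The log2 difference was 0.05 ± 0.31 (SE; adjusted p = 0.952). Leaving out knockout replicate 2 gave -0.42 (adjusted p = 0.0315), and leaving out knockout replicate 1 gave 0.53 (adjusted p = 0.0568). These fits rest on 1 knockout array, take its variation to be that of the controls, and called 983 genes when knockout replicate 2 was left out.

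Hoxb2, a gene of hindbrain segments and their neural crest, read 5.07, 5.10 and 5.05 in the controls and 4.94 and 5.59 in the knockout arrays. It too was lowest in knockout replicate 1 and highest in knockout replicate 2, with a difference of 0.19 ± 0.21 (SE; adjusted p = 0.695) that was -0.13 without knockout replicate 2 and 0.51 without knockout replicate 1. Hoxb5, which acts in vagal neural crest and shoulder position, read 5.18, 5.27 and 5.15 against 5.23 and 5.65, so that only the second knockout array left the control range. Its difference was 0.25 ± 0.14 (SE; adjusted p = 0.57), and 0.035 without that array against 0.45 without the first. Hoxa3, needed for the thymus, the parathyroid and the third arch artery, read 4.66, 4.24 and 4.37 against 4.45 and 5.05. Again only knockout replicate 2 was outside the controls (difference 0.33 ± 0.24, SE; adjusted p = 0.579). Without it the difference was 0.024, and without knockout replicate 1 it was 0.63.

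The tested genes of the rear groups lay within or near the control range on both knockout arrays. Hoxd10, a gene of hindlimb and lumbar cord, read 5.28, 5.51 and 5.76 in controls and 5.51 and 5.63 in knockout hearts, all inside the control range. Hoxb13, known from tail and prostate, read 4.27, 4.54 and 4.87 against 4.41 and 4.61, again inside. Hoxc10 read 4.64, 4.59 and 4.70 against 4.59 and 4.59, with a difference of -0.06 ± 0.05 (SE; adjusted p = 0.61). The adjusted p was 0.895 for Hoxd10 and 0.924 for Hoxb13.

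**Figure D2:**
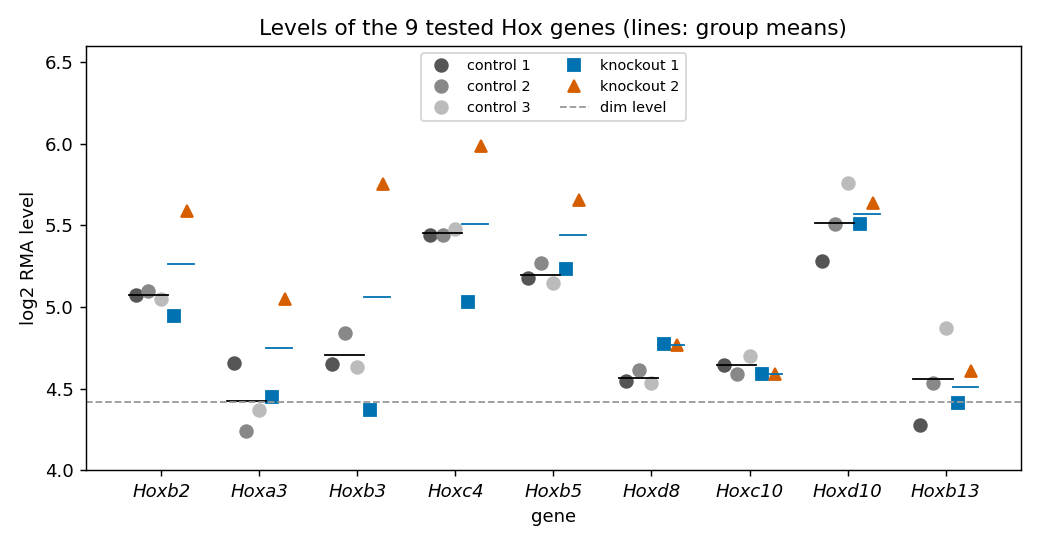
Log2 RMA level of the 9 tested Hox genes on each of the 5 arrays, ordered by paralogue group; short lines are group means (control black, knockout blue) and the dashed line is the dim level of 4.42. For Hoxb2, Hoxb3 and Hoxc4 knockout 1 lies below and knockout 2 above the 3 controls, and only Hoxd8 has both knockout arrays above all controls.

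As a list, 7 of the 9 tested members had a difference above 0, against 43.7% of all genes tested, with a median of 0.19 against -0.01 over all genes. With the filter on the control arrays alone, which leaves out Hoxa3, it was 6 of 8 with a median of 0.12. The median rested on 1 array. The median shift from the control mean was -0.06 on the first knockout array but 0.45 on the second. For 5 of the 9 the knockout arrays lay on opposite sides of the control mean, against 25.1% of all genes tested. Without knockout replicate 2 the median turned to -0.06, and with every gene tested and no filter it was 0.03 over the 38.

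The high values of knockout replicate 2 lay in the low-numbered paralogue groups. Of 14 members in groups 1 to 5, 11 were highest of the 5 arrays in knockout replicate 2, against 16.1% of all probe sets, with ties not counted as highest or lowest here and below. In groups 6 to 9 it was 2 of 12, and in groups 10 to 13 again 2 of 12. In 8 of the 14 the level was more than 0.5 above the control mean, against 2.82% of all probe sets, and none of the 24 in groups 6 to 13 was. These compare 1 array with the others, so they carry no test.

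Beside Hoxb3 (1.04), the largest of these shifts were in Hoxa4, Hoxa5 and Hoxa2, which were dim on the other arrays. Hoxa4 read 3.93, 4.03 and 3.75 in controls, 3.85 in knockout replicate 1 and 5.21 in knockout replicate 2, a shift of 1.31 in the last. It crossed the dim line on that array alone. Hoxa5, which is needed for lung and airway formation, read 3.23, 3.20 and 3.33 in controls, 3.33 in knockout replicate 1 and 4.26 in knockout replicate 2. Hoxa2, which patterns the second arch, read 4.14, 3.42 and 3.33 against 3.61 and 4.49, and was also high in control replicate 1. The 3 genes were left out of the test as dim, so they have no p-value.

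Hoxc5 read 3.10, 3.10 and 2.72 in controls, 3.06 in knockout replicate 1 and 3.49 in knockout replicate 2. Hoxb4 (3.22 against 2.79 to 2.98 in controls) and Hoxd3 (4.31 against 3.90 to 4.17) were highest in knockout replicate 2 by smaller margins. The exceptions in groups 1 to 5 were Hoxb1 and Hoxd1, whose values were tied between arrays, and Hoxd4, where control replicate 3 was highest at 4.09. On knockout replicate 2, 11 of 38 members were above the dim line, on the control arrays 8 each and on knockout replicate 1, 7.

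**Figure D3:**
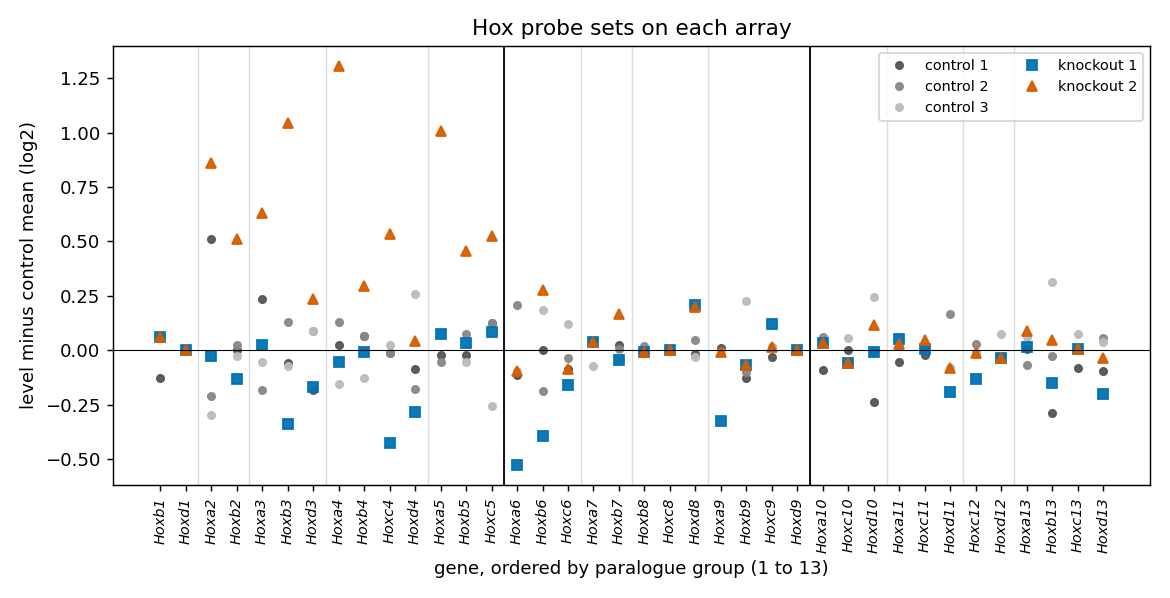
Level minus the control mean (log2) of each of the 38 Hox probe sets on each array, ordered by paralogue group, with black vertical lines before groups 6 and 10. Knockout 2 (triangles) is 0.51 to 1.31 above the control mean for 8 genes of groups 2 to 5 and between -0.09 and 0.28 for the genes of groups 6 to 13.

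Knockout replicate 1 was lowest of the 5 arrays for 12 of 38 members (31.6%), against 23.6% of all probe sets. Beside Hoxb2, Hoxb3 and Hoxc4, the clearest were dim genes of the middle groups. Hoxa6 read 3.47 there against 3.88 to 4.21 in controls, Hoxb6 read 3.09 against 3.29 to 3.66, and Hoxa9 read 3.37 against 3.69 to 3.71. A level more than 0.25 below the control mean was seen for 6 members (15.8%), against 12.7% of all probe sets. These counts are close to the shares over all probe sets and carry no test. Ties aside, no Hox member was lowest in knockout replicate 2, against 4423 of all 24479 probe sets.

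The promoters of 3 genes from the group that was high in knockout replicate 2 are shown, chosen because their motif content differs. Each is the 250 bases before the gene start, from RefSeq in GRCm38.p6, read on the gene's strand. The table held promoters for 22 of the 38 members. Hoxa2 lies at chr6:52164832-52165081 (minus strand), Hoxa5 at chr6:52204588-52204837 (minus) and Hoxc4 at chr15:103034145-103034394 (plus). Capitals mark matches on either strand to TGATNNAT (the joint HOX-PBX motif), TGACAG (MEIS) or AGGTCA (a half-site of retinoic acid receptors).
Hoxa2: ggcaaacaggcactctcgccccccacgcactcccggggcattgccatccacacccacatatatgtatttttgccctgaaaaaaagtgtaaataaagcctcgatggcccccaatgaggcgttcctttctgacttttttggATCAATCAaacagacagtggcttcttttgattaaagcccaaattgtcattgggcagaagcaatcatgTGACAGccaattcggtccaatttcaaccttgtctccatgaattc
Hoxa5: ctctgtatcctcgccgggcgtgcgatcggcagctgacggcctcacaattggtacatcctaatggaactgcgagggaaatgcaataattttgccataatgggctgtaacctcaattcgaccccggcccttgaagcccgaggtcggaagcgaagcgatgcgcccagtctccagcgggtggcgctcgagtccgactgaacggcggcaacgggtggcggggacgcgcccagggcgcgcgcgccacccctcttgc
Hoxc4: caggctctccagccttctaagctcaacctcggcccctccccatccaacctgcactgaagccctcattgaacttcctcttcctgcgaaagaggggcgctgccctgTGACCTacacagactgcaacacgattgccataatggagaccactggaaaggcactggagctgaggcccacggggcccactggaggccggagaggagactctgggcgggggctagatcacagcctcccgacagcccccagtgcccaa

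Hoxa2 carries a HOX-PBX match that begins 111 bases before the start, on the reverse strand, and a MEIS match at 44 bases. Hoxc4 carries a receptor half-site at 146 bases on the reverse strand, and Hoxa5 none of the 3 motifs. Over 24 Hox promoters of the 22 genes, TGATNNAT was found in 4, TGACAG in 2 and AGGTCA in 6. Over all 32851 promoters of the same length the shares were 7.68%, 15.9% and 14%. None of the motifs was common to the 3 genes shown, and a match or its lack says nothing about binding. Within the window, 63.6% of the bases of Hoxa5 and 46.4% of those of Hoxa2 were G or C.

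Markers of other cell types moved with the same arrays. The summed linear level of the 15 liver endoderm markers on the array, as log2, was 8.39 to 8.45 in controls. It was 8.41 on the first knockout array and 13.19 on the second, where all 15 were highest. The fetal serum protein gene Afp read 11.42 there against 3.86 to 4.07 elsewhere. Of the 15, 9 were below the dim line in control hearts. For 12 foregut and lung endoderm markers the sum was 9.51 to 9.72 in controls and 9.68 and 10.21 in the knockout arrays, and 8 of 12 were highest in knockout replicate 2. Foxa1, an endoderm factor, read 5.24 there against 3.56 to 3.64 elsewhere. The lung factor gene Nkx2-1, like Foxa1 below the dim line in control hearts, did not rise, at 3.90 there and 3.90 to 3.91 elsewhere. Shh was 4.41 on all arrays.

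The 12 markers of the inflow region and septum transversum, the mesoderm beside the liver bud, also had 8 members highest in knockout replicate 2. Their sum was 10.98 to 11.28 in controls, with 10.87 on the first knockout array and 11.40 on the second. The 2 that rose most were Foxf1, a factor of gut mesoderm, and the sinus venosus factor gene Shox2. Foxf1 read 6.73 on that array against 4.25 to 4.95 elsewhere, and Shox2 read 6.66 against 3.80 to 4.88. Another 2 of the 12 were lowest on it, Upk1b at 7.90 against 8.13 to 8.49 and Msln at 4.52 against 4.54 to 4.68. The part of these tissues in the Hox values was not tested. In bulk samples fewer cells of a type and less RNA per cell cannot be told apart.

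On the lists for other tissues that use Hox genes, 0 to 3 markers were highest in knockout replicate 2, against 16.1% of all probe sets. The part of these tissues in the Hox values was not tested either. For neural crest 0 of 10 markers were highest in knockout replicate 2 and the sum was 9.30 to 9.67 in controls and 9.40 and 9.62 in the knockout arrays. On knockout replicate 2, 8 of these 10 were below the control mean and 2 above. On knockout replicate 1, 5 of the 10 were lowest of the 5 arrays, against 23.6% of all probe sets. There 6 were below the control mean and 4 above. Ets1 was above all controls on both knockout arrays, at 8.33 and 8.32 against 7.41 to 8.04. For the neural tube 1 of 12 was highest in knockout replicate 2, with sums of 9.11 to 9.37 in controls and 9.02 and 8.88 in the knockout arrays. For somites and trunk mesoderm 3 of 12 (25%) were highest in knockout replicate 2, with 9 above the control mean on that array. In controls 8 of these 12 were below the dim line. For limb bud 0 of 10 were highest in knockout replicate 2, with 5 below the dim line in controls. On knockout replicate 1, 5 of the limb bud markers were lowest. Knockout replicate 1 had the highest summed level of the 13 macrophage and blood markers, 9.37 against 8.62 to 8.73 in controls, and of the 10 endothelial markers, 11.95 against 11.29 to 11.57. Of the 13, 8 were highest there, against 5085 of all 24479 probe sets. Tyrobp rose furthest, to 7.65 against 4.85 to 5.09 elsewhere. The list was not uniform: C1qa was lowest there, at 4.85 against 5.10 to 5.42, and Adgre1 was equal on all arrays. Of the 10 endothelial markers, 7 were highest in knockout replicate 1 and 3 were below the control mean on it. Among these 3 was Nfatc1, at 6.69 against 6.76 to 7.01 in controls. In the second heart field list, 1 of 9 markers was highest in knockout replicate 2, against 16.1% of all probe sets. It was Fgf10, at 5.49 against 4.29 to 5.05 elsewhere, and 6 of the 9 were below the control mean on that array. The list was not split into front and rear parts of the field. Knockout replicate 2 was lowest for 8 of 12 cardiomyocyte markers, against 4423 of all 24479 probe sets. Their sum was 15.28 to 15.30 in controls, 15.35 on knockout replicate 1 and 15.19 on knockout replicate 2. All 8 erythroid markers were below the control mean on both knockout arrays. Their sums of 13.39 and 13.58 lay inside the control range of 13.32 to 14.10.

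**Figure D4:**
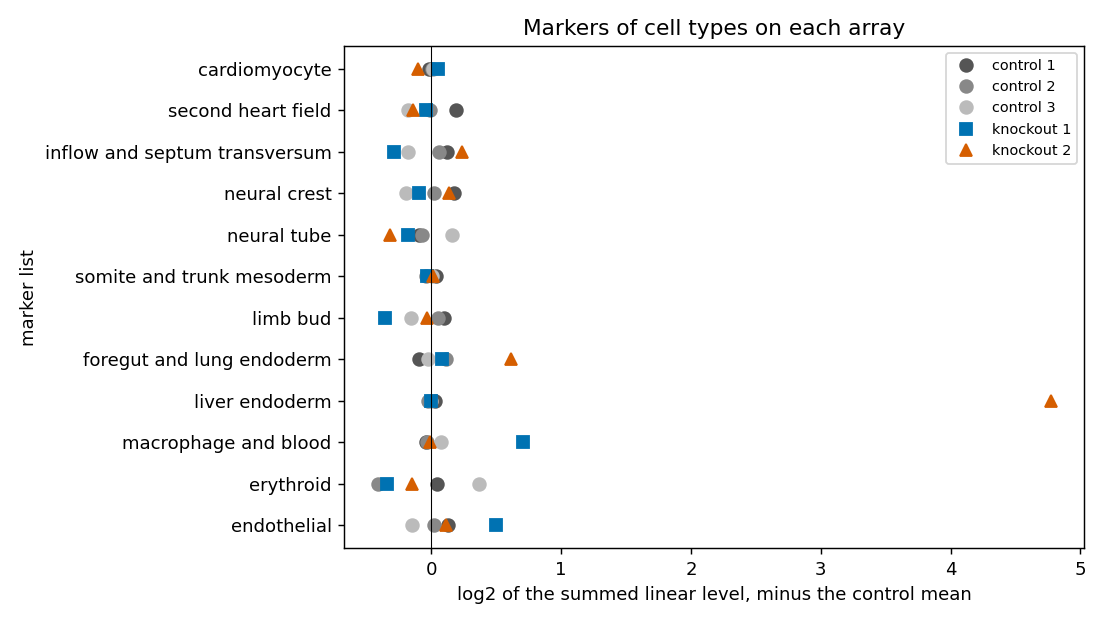
Log2 of the summed linear level of each marker list on each array, minus the mean of the 3 controls, for 12 cell types. Knockout 2 stands apart for the liver endoderm and foregut endoderm sums, and knockout 1 for the macrophage and endothelial sums. The brightest members weigh most in each sum, and not every member moves with it.

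The genes that act with or on Hox genes gave no call either. Of 11 tested TALE genes, 5 had a higher and 5 a lower mean in knockout hearts, and Pbx4 was equal. The median was 0.00, and 0 reached an unadjusted p under 0.05 in limma. Pbx2 (-0.24) and Pbx3 (-0.50), which form DNA-binding pairs with Hox proteins, had the smallest p, followed by Meis1 (0.09) and Pbxip1 (0.14). Pbx3 read 7.65, 7.58 and 7.66 in controls, 6.78 in knockout replicate 1 and 7.47 in knockout replicate 2. Both knockout arrays were thus below the controls, the first by far more.

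Among 11 tested genes that act upstream, 2 were higher at an unadjusted p under 0.05, where the background for higher genes was 3.29%. Both are known to respond to retinoic acid, but whether its signalling differed was not tested. Over the 11, 6 were higher and 5 lower (median 0.02), the lower ones including Crabp2 (-0.31) and Stra6 (-0.25). Rarb, a retinoic acid receptor, read 6.54, 6.58 and 6.39 in controls and 6.78 and 6.92 in knockout hearts, with no overlap (0.35 ± 0.08, SE; adjusted p = 0.434). Dhrs3, which turns retinal back to retinol, read 6.10, 5.79 and 6.02 against 6.43 and 6.72 (0.61 ± 0.14, SE; adjusted p = 0.434). The retinoic acid synthesis gene Aldh1a2 differed by 0.04, Gdf11 by -0.34 and the breakdown enzyme gene Cyp26b1 by 0.08. The retinoic acid binding protein gene Crabp1 read 8.83, 9.06 and 7.08 in controls and 6.10 and 9.13 in knockout hearts, a wider spread within than between groups.

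Of 21 tested Polycomb genes, whose products keep Hox genes silent, 11 were higher and 10 lower (median 0.02). Jarid2, a partner of the Polycomb methyltransferase, was at 0.51 ± 0.11 (SE; adjusted p = 0.423), the only 1 at an unadjusted p under 0.05, while Ezh1 was at 0.26, Suz12 at 0.14 and Rbbp7 at 0.07. Trithorax products keep Hox genes active, and the list of 15 trithorax and related genes also held Ctcf (-0.09), which is not a trithorax gene. Of these 15, 12 were lower (median -0.09), against 54.4% of all genes tested. The median shift was -0.16 on knockout replicate 1 but -0.011 on knockout replicate 2, and for 5 of the 15 the knockout arrays lay on opposite sides of the control mean. At an unadjusted p under 0.05 there was 1 lower gene, where the background for lower genes was 5.49%. Dot1l, the H3 lysine methyltransferase recruited by Kmt2a fusions, read 8.03, 8.13 and 8.18 in controls and 7.58 and 7.74 in knockout hearts (-0.46 ± 0.08, SE; adjusted p = 0.355). Kmt2c was at 0.19, Brpf1 at -0.17, Dpy30 at -0.16 and Kmt2a itself at -0.11.

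Most noncoding transcripts of the clusters were dim. Of 9 on the array, 1 passed the filter, Hoxaas3, with a difference of -0.03 (adjusted p = 0.938), and Hotair read 2.95 to 3.20 over the 5 arrays. The primary transcripts of Mir10a and Mir10b, which lie beside the group 4 genes, read 2.26 to 2.43 and 2.26 to 2.47. The 24 nearest tested genes around the clusters, 3 on each side, had a median of -0.01, with 10 higher, 13 lower and Smug1 equal on all arrays. At an unadjusted p under 0.05 there were Skap2 (0.41) beside Hoxa, Snf8 (-0.52) beside Hoxb, Calcoco1 (0.32) beside Hoxc and Atp5g3 (-0.18) beside Hoxd, 4 of 24 against 8.78% of all genes. Of other homeobox genes, 4 of 16 were tested, at differences of 0.10 (Dlx3), 0.04 (Evx2), -0.01 (Dlx2) and 0.01 (Meox1).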

How the data were processed

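Expression was read on Affymetrix arrays. Per the submitters' processing notes, the authors used Affymetrix Expression Console and RMA and deposited 1 table of log2 levels; the labels give no version or setting of either. The platform annotation names 23281 of 24479 probe sets, and current symbols came from RefSeq (GRCm38.p6). The brightest probe set of a gene was kept (23279 genes), and genes with a mean over the 5 arrays below the 40th percentile were left out, leaving 13967. Knockout and control were compared in limma 3.58.1 (R 4.3.3; lmFit, eBayes, two-sided, no covariate), with Benjamini-Hochberg adjustment over all genes tested. Lists got no p-value, and the fit was tested on simulated data first. Array number, not read depth, limits precision, and ties in the deposited values were kept.

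Members and lists were chosen with earlier results of these data known. Genes named are Lrrfip2, all tested Hox genes, up to 4 genes of each pathway list by smallest p, and cluster neighbours at an unadjusted p under 0.05. The rule also asked for 3 genes of each marker list; most lists are given by their sums instead. Dim Hox genes and other genes named, such as Hoxa4, Crabp1, Aldh1a2 and Foxf1, were picked after their values were seen. The split into groups 1 to 5, 6 to 9 and 10 to 13 is one of convenience.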

Additional observations from a re-analysis of the deposited data

How the results depend on the processing

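No paired analysis was possible because the sample numbers in the labels are not shared between the groups. No Hox gene was called by limma under any alternative except that Hoxc4 passed without knockout replicate 2; leaving out 1 array at a time gave 0 to 1 called and 1 to 5 members at an unadjusted p under 0.05, the 5 without knockout replicate 1 and 3 without knockout replicate 2. The median difference of 0.19 was 0.033 with no filter, 0.035 with a filter at the 20th percentile, 0.12 with the filter on control arrays and 0.17 after quantile normalization again. Without 1 array it was -0.057 to 0.45, the lower value without knockout replicate 2. By gene the leave-one-out range was -0.13 to 0.51 for Hoxb2, -0.34 to 1.04 for Hoxb3, 0.024 to 0.63 for Hoxa3, 0.035 to 0.45 for Hoxb5, -0.42 to 0.53 for Hoxc4, -0.063 to 0.18 for Hoxd10 and -0.20 to 0.10 for Hoxb13, which was also 0.057 with array weights. For Hoxd8 it was 0.19 to 0.23, and its adjusted p was 0.116 to 0.757 over the alternatives run. At the 60th percentile filter no Hox gene was left to test. The count above the dim line was 18 at the 30th and 3 at the 50th percentile, 7 when the lowest control array had to pass, and 8 to 9 without 1 control. Why these values move was not tested beyond the arrays left out.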
